A study of Homo sapiens with 12 samples.

Results

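The early growth response (EGR) and immediate early response (IER) genes were followed in the established melanoma line WM35, of human origin, as 8 listed genes: EGR1, EGR2, EGR3, IER2, IER3, IER5, SRF and MAFF. All probes that the array annotation names to these symbols were taken, which gave 7 probes of 6 genes among 27004 probes with 1 gene symbol in a table of 47230 probes. MAFF had 2 probes and EGR1, EGR3, IER2, IER3 and IER5 had 1 each, while EGR2 and SRF were not analysed here. All 7 probes were detected on at least 2 arrays and entered the tests.

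The 12 Illumina 1-colour arrays sat on 1 BeadChip and fell into 5 groups. Both treatment times were set against the same 2 control arrays, whose cells had received DMSO alone and whose labels state no time. Trifluridine (TFT, a thymidine analog that is built into DNA) was read on 3 arrays at 8 h and 2 at 24 h. Lactimidomycin (LTM, an inhibitor of translation elongation) was likewise read on 3 arrays at 8 h and 2 at 24 h. Doses were the concentrations giving 75% inhibition at 72 h, and all groups were the same cell line. Nothing in the labels says that replicates were separate cultures, and a p-value here reflects only how far these few arrays vary, which may be technical.

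Immediate early genes are transcribed within minutes of a growth factor or stress signal from factors already present in the cell, without new protein synthesis. Serum response factor, encoded by SRF, binds CArG boxes in many of their promoters together with ternary complex factors that the ERK kinases phosphorylate. EGR1, EGR2 and EGR3 are zinc finger transcription factors, MAFF is a small MAF protein of the basic leucine zipper class, and IER2, IER3 and IER5 encode short-lived nuclear or stress-response proteins. Their transcripts decay quickly, and blocking translation is known to raise and prolong them, an effect called superinduction. The comparison asked here was whether their levels after LTM lasted from 8 h to 24 h.

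The sequence just upstream of the transcription start is shown for EGR1 and IER5, the members whose LTM levels moved in opposite directions between the times with 9 arrays, and for MAFF. The windows are 250 bases ending at the start site, from RefSeq with build GRCh38.p14, on the plus strand, written 5′ to 3′, and capitals mark a CArG box in EGR1 and the cyclic AMP response element TGACGTCA in MAFF. The windows are chr5:138465229-138465478 for EGR1, chr22:38201744-38201993 for MAFF and chr1:181088450-181088699 for IER5.
EGR1: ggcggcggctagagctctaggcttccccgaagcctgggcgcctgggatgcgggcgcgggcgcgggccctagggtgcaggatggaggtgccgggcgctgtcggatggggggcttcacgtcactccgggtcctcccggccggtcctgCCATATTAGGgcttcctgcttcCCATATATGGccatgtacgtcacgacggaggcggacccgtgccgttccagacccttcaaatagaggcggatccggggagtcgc
MAFF: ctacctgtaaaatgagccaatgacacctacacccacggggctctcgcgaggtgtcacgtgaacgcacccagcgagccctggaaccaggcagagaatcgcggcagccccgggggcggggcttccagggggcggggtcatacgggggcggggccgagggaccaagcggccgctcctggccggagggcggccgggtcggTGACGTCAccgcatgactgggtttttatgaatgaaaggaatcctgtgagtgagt
IER5: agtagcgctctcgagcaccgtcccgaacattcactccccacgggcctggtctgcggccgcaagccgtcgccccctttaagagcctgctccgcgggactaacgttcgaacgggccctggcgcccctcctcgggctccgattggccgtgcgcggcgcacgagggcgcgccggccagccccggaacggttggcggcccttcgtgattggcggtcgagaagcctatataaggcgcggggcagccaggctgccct
The EGR1 window held 2 CArG boxes, from 105 to 96 and from 83 to 74 bases before the start. The MAFF window shown held 1 cyclic AMP response element, from 54 to 47 bases before the start. The other MAFF window and the IER5 window held neither motif. RefSeq windows were matched for 6 of the 8 genes, 10 windows in all because EGR2, SRF and MAFF have several starts. A CArG box also stood in 1 of the EGR2 windows and in 1 of the SRF windows, which held 2. Both strands were searched, and no window held both motifs. Of 35116 RefSeq windows of this length, 1.16% held a CArG box and 1.65% held TGACGTCA. A match describes the letters only.

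Levels below are log2 intensities after background correction and quantile normalization, and are compared within a probe only. Over all probes, 3 arrays went against their labels. Over the 24325 probes tested, each centred on its mean, the array labelled TFT 8 h replicate 3 had r = -0.49 with both of the others of its label, against 0.73 with LTM 8 h replicate 2 and 0.70 with replicate 3. For the array labelled LTM 8 h replicate 1, r was -0.46 and -0.39 within its label and 0.75 with TFT 24 h replicate 2. For the array labelled TFT 24 h replicate 1, r was 0.44 within its label and 0.66 with TFT 8 h replicate 1 and again with replicate 2. Probes are not replicates, so these values carry no test. The comparisons are therefore set out for all 12 arrays as labelled and for the 9 arrays without these 3, a choice made after the data had been seen. With 9 arrays TFT 24 h is 1 array, assumed to vary like the other groups. The share of probes detected ran from 41.3% to 43.5% over the arrays. Of 8 melanocyte lineage genes 7 had a named probe: SOX10 and MITF were detected on all 12 arrays, PMEL on 4, and MLANA, TYR, TYRP1 and S100B on 0. Of 11 markers of other cell types 10 had a probe. ALB was detected on 12 arrays (5.04 to 5.98), DCN on 2, and COL1A1 and PECAM1 on 1 each, with PTPRC, CD3E, CDH5, KRT5, KRT14 and COL3A1 on 0.

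**Figure D1:**
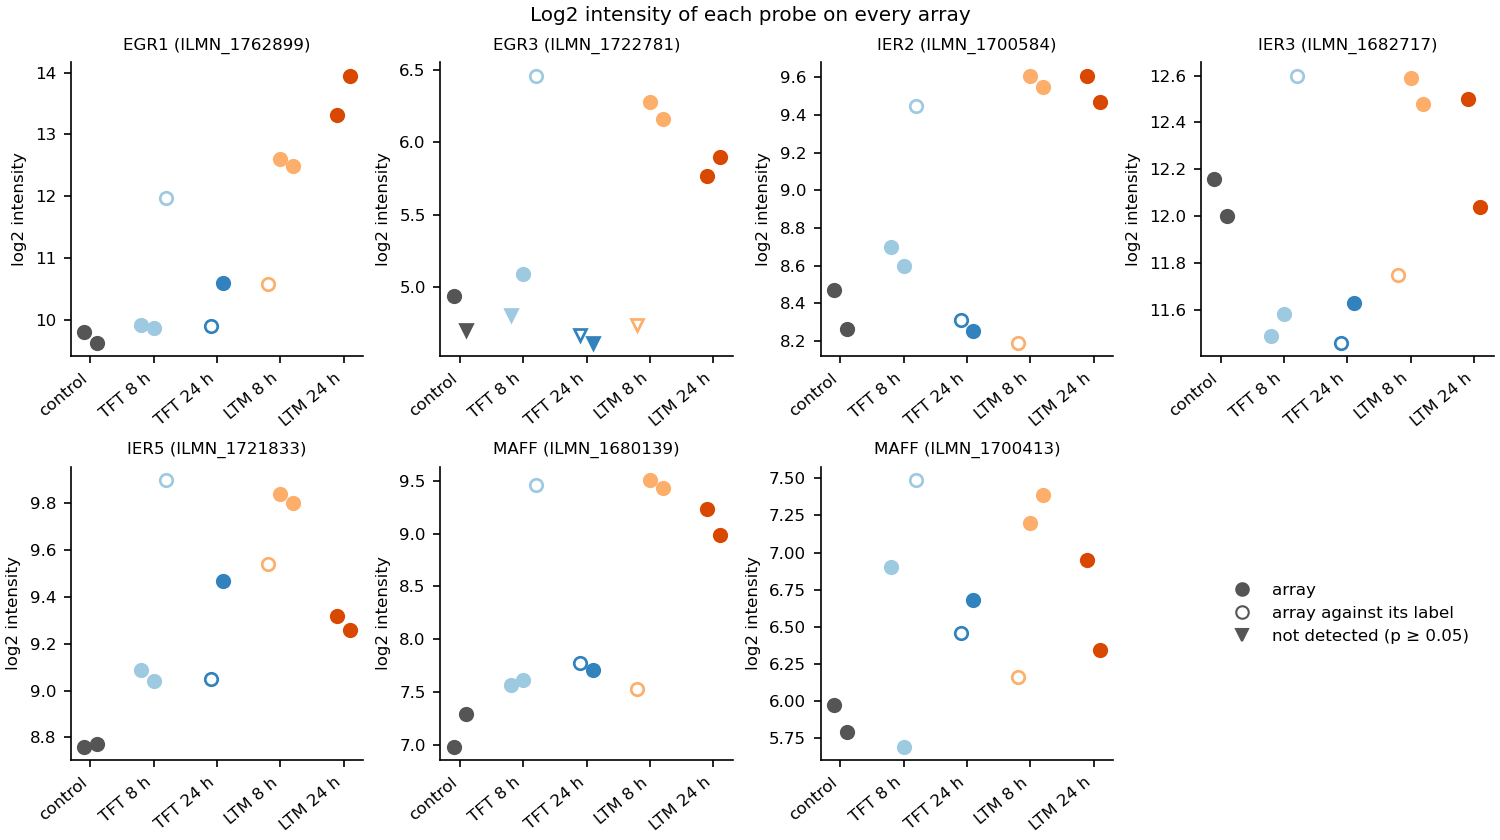
Log2 intensity (vertical axis) of each of the 7 probes on all 12 arrays, by labelled group, with 1 point per array. Open symbols are the 3 arrays that went against their labels and triangles are arrays on which the probe was not detected. The open TFT 8 h point lies among or near the LTM 8 h points for every probe, and EGR1 is highest on both LTM 24 h arrays.

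EGR1, the founding member of its family and a transcription factor that many stimuli induce, had the largest rise of the members after LTM. Its level was 9.81 and 9.64 on the control arrays, 10.58, 12.61 and 12.49 on LTM 8 h replicates 1, 2 and 3, and 13.31 and 13.95 on the LTM 24 h arrays. On the TFT 8 h arrays it was 9.93, 9.88 and 11.97 and on the TFT 24 h arrays 9.91 and 10.61. Both LTM 24 h arrays lay above every other array, and the array labelled TFT 8 h replicate 3 was the only TFT array above 11. The deposited background-subtracted signals ran from 846.2 and 980.7 on the controls to 8457 and 11010 at LTM 24 h. In order, the group means as labelled were 9.73 for control, 10.26 for TFT 24 h, 10.59 for TFT 8 h, 11.89 for LTM 8 h and 13.63 for LTM 24 h, and the arrays of TFT 8 h overlapped those of both of its neighbours in that order.

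After LTM for 24 h, EGR1 was 14.9-fold above control, a log2 fold change of 3.90 that is the same in both fits because neither group holds any of the 3 arrays. The adjusted p was 0.00179 (SE 0.74) with 12 arrays and 5.07e-07 (SE 0.19) with 9, by limma with Benjamini-Hochberg adjustment over all probes. At 8 h the log2 fold change as labelled was 2.16 (SE 0.67, adjusted p = 0.216), and with 9 arrays it was 2.82 (SE 0.19, adjusted p = 1.26e-05). From 8 h to 24 h of LTM the level changed by 1.74 as labelled (SE 0.67, adjusted p = 0.0687), and it rose by 1.08 with 9 arrays (95% confidence interval 0.65 to 1.51, adjusted p = 0.00127). The latter difference stayed past the threshold in each of 9 repeats that left out 1 of these arrays, with log2 differences of 0.76 to 1.40. With 1 array left out of the 12, the 24 h to 8 h difference passed without the array labelled TFT 8 h replicate 3 (adjusted p = 0.0163). It also passed without LTM 8 h replicate 2 (adjusted p = 0.0474), and in no other case. Without only the array labelled LTM 8 h replicate 1 it was 1.08 (adjusted p = 0.177). Without LTM 24 h replicate 1 or 2 the adjusted p was 0.131 and 0.333.

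EGR3, a family member that EGR-inducing signals switch on in many cells, was near background in control cells and higher at both LTM times with 9 arrays. Its level was 4.94 and 4.71 on the controls, of which replicate 1 was detected and replicate 2 was not, 4.74, 6.28 and 6.16 on the LTM 8 h arrays, and 5.77 and 5.90 on the LTM 24 h arrays. On TFT 8 h arrays it was 4.81, 5.09 and 6.46, and at TFT 24 h it was 4.67 and 4.62, not well above background. The LTM 24 h arrays were above both controls and below LTM 8 h replicates 2 and 3. With 9 arrays EGR3 was higher by 1.40 at 8 h (adjusted p = 0.000135) and by 1.01 at 24 h (adjusted p = 0.00024), and as labelled neither passed (0.91 and 1.01, adjusted p = 0.381 and 0.16). Against TFT at 24 h it was at least 1.89-fold higher after LTM, with adjusted p = 0.101 as labelled and 0.000378 with 9 arrays. The change from 8 h to 24 h did not pass with 9 arrays (-0.39, 95% confidence interval -0.72 to -0.05, adjusted p = 0.0634) or as labelled (0.11, adjusted p = 0.895). The floor near background limits how low its control level could read.

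MAFF, a small MAF factor that forms dimers with CNC and BACH proteins, was read by 2 probes that ran at different sizes. Probe ILMN_1680139 was at 6.98 and 7.29 on the controls, 7.53, 9.51 and 9.43 on the LTM 8 h arrays and 9.23 and 8.99 on the LTM 24 h arrays. It was at 7.57, 7.61 and 9.46 on the TFT 8 h arrays and at 7.77 and 7.71 on the TFT 24 h arrays. Apart from the 3 arrays against their labels, all LTM arrays lay above all TFT and control arrays by this probe. It rose by 1.98 at 24 h (3.93-fold), with adjusted p = 0.0357 as labelled and 3.56e-06 with 9 arrays. At 8 h it rose by 2.33 with 9 arrays (5.04-fold, adjusted p = 8.99e-06), and as labelled the change of 1.69 did not pass (adjusted p = 0.246). The 24 h to 8 h difference was -0.36 with 9 arrays (95% confidence interval -0.69 to -0.02, adjusted p = 0.0795) and 0.29 as labelled (adjusted p = 0.767).

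The dimmer MAFF probe ILMN_1700413 was at 5.97 and 5.79 on the controls, 6.16, 7.20 and 7.39 at LTM 8 h, and 6.95 and 6.34 at LTM 24 h. The TFT 8 h arrays read 6.90, 5.69 and 7.49, and the TFT 24 h arrays 6.46 and 6.68. This probe scattered more within groups, and its LTM 24 h arrays overlapped those of TFT at both times. With 9 arrays it was higher by 1.42 at LTM 8 h (adjusted p = 0.00959), and the value at 24 h was 0.77 (adjusted p = 0.0762). As labelled neither time passed, at 1.04 (adjusted p = 0.314) and 0.77 (adjusted p = 0.268). The call at 8 h was lost without control replicate 2 (adjusted p = 0.0517) or without LTM 8 h replicate 3 (0.0515). The 24 h to 8 h difference by this probe was -0.65 (95% confidence interval -1.39 to 0.09, adjusted p = 0.145) with 9 arrays and -0.27 as labelled (adjusted p = 0.706).

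IER2, which encodes a nuclear protein of the immediate early class, rose at both LTM times with 9 arrays. It read 8.47 and 8.26 on the controls, 8.19, 9.61 and 9.55 at LTM 8 h, and 9.61 and 9.47 at LTM 24 h. The TFT arrays read 8.70, 8.60 and 9.45 at 8 h and 8.31 and 8.25 at 24 h. Apart from the 3 arrays, the LTM arrays of both times overlapped each other and lay above all others. It rose by 1.17 at 24 h (2.26-fold), with adjusted p = 0.0417 as labelled and 4.19e-05 with 9 arrays, and by 1.21 at 8 h with 9 arrays (adjusted p = 0.000155; as labelled 0.75, adjusted p = 0.359). The 24 h to 8 h difference with 9 arrays was -0.04, with a 95% confidence interval of -0.34 to 0.26 (adjusted p = 0.849). As labelled it was 0.42, with an interval of -0.41 to 1.26 (adjusted p = 0.445), so its sign differs between the fits and neither value passed.

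IER5, an immediate early gene also known from the heat shock response, rose and then fell back between the LTM times with 9 arrays. Its level was 8.76 and 8.77 on the controls, 9.54, 9.84 and 9.80 at LTM 8 h, and 9.32 and 9.26 at LTM 24 h. On the TFT arrays it was 9.09, 9.04 and 9.90 at 8 h and 9.05 and 9.47 at 24 h. All treated arrays of both drugs lay above both controls, and both LTM 24 h arrays lay below all 3 LTM 8 h arrays. With 9 arrays IER5 rose by 1.06 at 8 h (2.08-fold, adjusted p = 0.000193) and by 0.52 at 24 h (1.43-fold, adjusted p = 0.00417), and it fell by 0.54 between those times (95% confidence interval -0.81 to -0.27, adjusted p = 0.00484). As labelled, the values were 0.96, 0.52 and -0.44 with adjusted p = 0.208, 0.149 and 0.201. With median scaling in place of quantile normalization on 9 arrays, the difference between the times was -0.33 and did not pass (adjusted p = 0.0775), while the authors' processed table gave -0.55 (adjusted p = 0.00232).

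IER3, a stress-inducible gene that NF-kB and p53 can regulate, was already bright in control cells and did not pass against control in either fit. Its level was 12.16 and 12 on the controls, 11.75, 12.59 and 12.48 at LTM 8 h, and 12.50 and 12.04 at LTM 24 h. The TFT arrays read 11.49, 11.58 and 12.60 at 8 h and 11.46 and 11.63 at 24 h. The TFT arrays other than the array labelled TFT 8 h replicate 3 lay below both controls, and the LTM 24 h arrays spanned the upper control. Against control with 9 arrays the log2 fold change was 0.45 after LTM for 8 h (adjusted p = 0.0671) and 0.18 for 24 h (adjusted p = 0.383), and median scaling gave 0.13 and -0.20, so the sign at 24 h depends on the scaling. As labelled the values were 0.19 (adjusted p = 0.803) and 0.18 (adjusted p = 0.732). From 8 h to 24 h the difference was -0.26 with 9 arrays (adjusted p = 0.234) and 0 as labelled (adjusted p = 0.996). Against TFT, IER3 was higher after LTM with 9 arrays, by 1 log2 unit at 8 h (adjusted p = 0.00175) and by 0.64 at 24 h (adjusted p = 0.0238), and as labelled neither passed (0.38 and 0.72, adjusted p = 0.936 and 0.14).

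**Figure D2:**
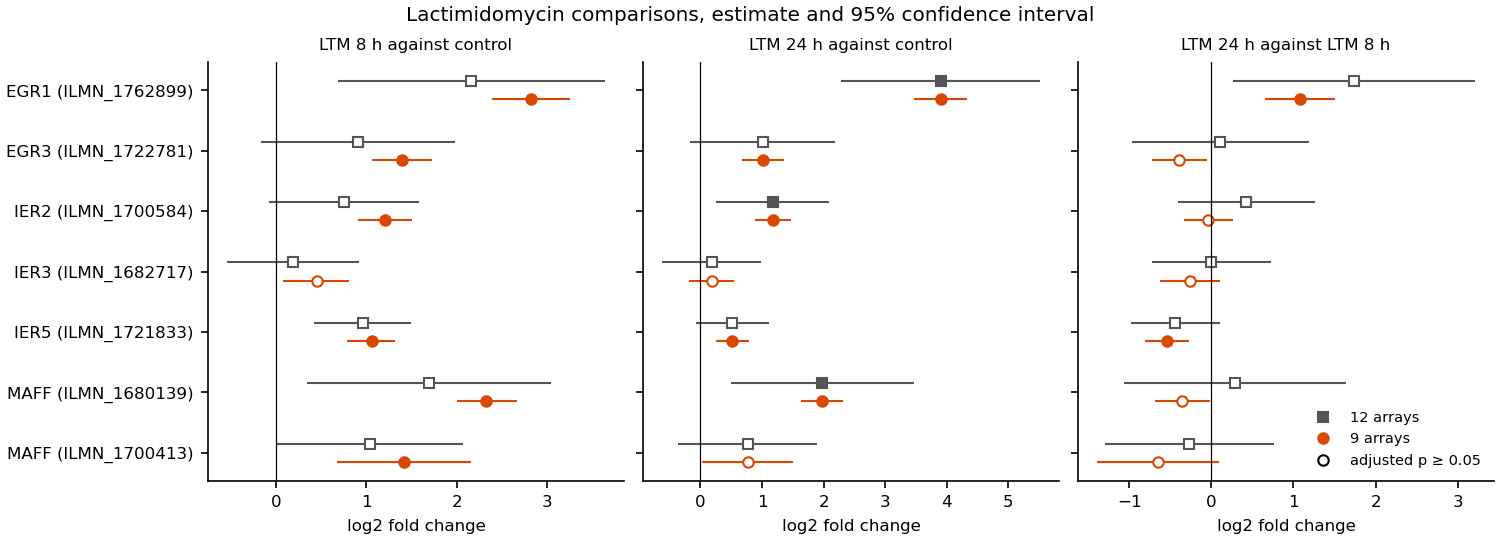
Log2 fold change (horizontal axis) with its 95% confidence interval for the 7 probes in 3 LTM comparisons, from the fit of 12 arrays (squares) and of 9 arrays (circles), with filled symbols where the adjusted p was under 0.05. In the right panel EGR1 lies above 0 and IER5 below 0 with 9 arrays, and the other 5 probes are open.

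Taken by count, 3 of the 7 probes rose after LTM for 24 h as labelled (EGR1, IER2 and MAFF ILMN_1680139) and 0 fell, where 20.0% of all 24325 probes rose and 20.9% fell. Only EGR1 still passed when either control array or either LTM 24 h array was left out, and the adjusted p of IER2 then ran from 0.105 to 0.167. With 9 arrays 5 of 7 probes rose, all but IER3 and MAFF ILMN_1700413, where 26.1% of all probes rose and 28.2% fell. At LTM 8 h 0 of 7 passed as labelled, as did 0% of all probes, with 4 of the 7 at an unadjusted p under 0.05 where 15.7% of all probes were. Without only the array labelled LTM 8 h replicate 1 there were 4 calls (EGR1, IER2, IER5 and MAFF ILMN_1680139), and leaving out the array labelled TFT 8 h replicate 3 gave 1, IER5. No fit without 1 array called more than 2032 of the 24325 probes at LTM 8 h. With 9 arrays 6 of 7 rose at 8 h, all but IER3, where 14.4% of all probes rose and 15.4% fell. The median log2 fold change over the 7 probes with 9 arrays was 1.40 at 8 h and 1.01 at 24 h, where the medians over all probes were -0.02 and -0.05. These comparisons share the control arrays.

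For the step from 8 h to 24 h of LTM, 0 of 7 probes passed as labelled, with 1 at an unadjusted p under 0.05 where 42.0% of all probes were, and where 17.1% of all probes rose and 16.3% fell. With 9 arrays 1 of 7 rose, EGR1, and 1 fell, IER5, where 21.5% of all probes rose and 21.8% fell. The shares of called members are near those of all probes. The remaining 5 probes had log2 differences between -0.65 and -0.04, and a p that misses the threshold does not show that they stayed level. Their upper 95% limits lay between -0.05 and 0.26, so with 9 arrays none of these 5 had a rise above 0.26 within its interval.

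After TFT, 0 of 7 probes passed against control at either time, in both fits. By adjusted p, 0% of all probes were called at both times as labelled, and 1.67% at 8 h and 0.366% at 24 h with 9 arrays. At an unadjusted p under 0.05 there was 1 member probe at 8 h and 0 at 24 h as labelled, where 9.04% and 5.08% of all probes stood. With 9 arrays there were 3 and 4, where 18.2% and 14.8% of all probes stood. The largest log2 values with 9 arrays were -0.55 for IER3 at 8 h (adjusted p = 0.121) and 0.89 for EGR1 at 24 h (adjusted p = 0.137). Set directly against TFT, LTM gave higher levels for 2 of 7 probes at 24 h as labelled, EGR1 (3.37, adjusted p = 0.00402) and IER2 (1.26, adjusted p = 0.0313), where 19.9% of all probes were higher. With 9 arrays 5 of 7 were higher at 24 h, all but IER5 (-0.18, adjusted p = 0.352) and MAFF ILMN_1700413 (-0.03, adjusted p = 0.959), where 23.9% of all probes were higher. At 8 h 0 of 7 passed as labelled, as did 0% of all probes. At an unadjusted p under 0.05 there were 0 of 7, where 3.47% of all probes stood. With 9 arrays 7 of 7 were higher at 8 h, where 13.7% of all probes were. The difference of the drugs in the change from 8 h to 24 h passed for 0 of 7 probes as labelled, where 22.5% of all probes were called. It was at an unadjusted p under 0.05 for 0 of 7, where 35.5% of all probes were. With 9 arrays it passed for 1 of 7, IER5, where 27.9% were called. The direct comparison at 8 h holds the array labelled TFT 8 h replicate 3, whose EGR1, EGR3, IER2 and MAFF levels were those given above beside the LTM 8 h arrays.

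Other immediate early genes were read from a list of 45, of which 41 had a passing probe, each gene by its brightest. The list was chosen with earlier results of these data known. NR4A1 and EGR4 in it passed the detection filter only through arrays where they were high. The counts below keep them, and any call of either gives no separate support for a rise. The shares of all probes beside this list and those below are over every kept probe, not 1 per gene. After LTM for 24 h, 17 rose and 2 fell as labelled, and 31 rose and 3 fell with 9 arrays, with a median log2 fold change of 1.15. Of all probes 20.0% rose and 20.9% fell as labelled, and 26.1% and 28.2% with 9 arrays. The largest rises at 24 h with 9 arrays were in FOS (4.88, SE 0.14), a component of the AP-1 transcription factor, in ATF3 (4.43, SE 0.14), a stress-induced repressor, in TNFAIP3 (4.31, SE 0.21), which encodes the A20 inhibitor of NF-kB, and in KLF10 (3.72, SE 0.19), a Kruppel-like factor. TNFAIP3 was detected on only 1 of the 2 controls, so background limits its size. At LTM 8 h 0 were called as labelled, where 0% of all probes were. With 9 arrays 35 rose and 2 fell at 8 h with a median of 1.60, against 14.4% and 15.4% of all probes. The rises were led by TNFAIP3 (3.87), FOS (3.61), FOSB (2.84) and DUSP1 (2.72), a phosphatase that switches off MAP kinases. After TFT for 8 h, 6 of the 41 rose and 0 fell with 9 arrays (median 0.15), where 1.67% of all probes were called. As labelled 0 of the 41 passed after TFT at either time, as did 0% of all probes.

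From 8 h to 24 h of LTM the list went both ways with 9 arrays: 11 genes rose, 20 fell and 10 did not pass, with a median of -0.30, where 21.5% of all probes rose and 21.8% fell. As labelled 4 rose and 3 fell, with a median of 0.11, where 17.1% and 16.3% of all probes did. With 9 arrays FOS rose by a further 1.27 (SE 0.14, adjusted p = 9.37e-05), ATF3 by 2.03, KLF10 by 1.12 and FOSB by 0.46, while DUSP1 changed by -1.12 (SE 0.12, adjusted p = 7.75e-05) and TNFAIP3 by 0.45 (adjusted p = 0.125). As labelled ATF3 passed (2.24, adjusted p = 0.0213), and FOS (2.25, adjusted p = 0.161), KLF10 (2.13, adjusted p = 0.0858), FOSB (1.22, adjusted p = 0.275) and DUSP1 (-0.43, adjusted p = 0.69) did not. The EGR1 value of 1.08 lies among the genes that rose further, and the IER5 value of -0.54 among those that fell. Paralogs of the members, named after their values were seen, differed from each other. EGR4 was not well above background on the controls and was at least 2.27-fold higher after LTM at 8 h and at least 2.05-fold higher at 24 h with 9 arrays (adjusted p = 0.000612 and 0.000306). As labelled EGR4 passed at neither time (adjusted p = 0.337 and 0.0567). It was detected only on both LTM 24 h arrays, LTM 8 h replicates 2 and 3 and the array labelled TFT 8 h replicate 3. EGR4 thus passed the detection filter only through arrays where it was high, and its p-values give no separate support for a rise. IER5L, a relative of IER5, fell by 1.24 at 8 h (adjusted p = 0.000185) and by 1.65 at 24 h (adjusted p = 6.85e-06) with 9 arrays, and as labelled passed at 24 h (adjusted p = 0.00196) and not at 8 h (adjusted p = 0.208).

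**Figure D3:**
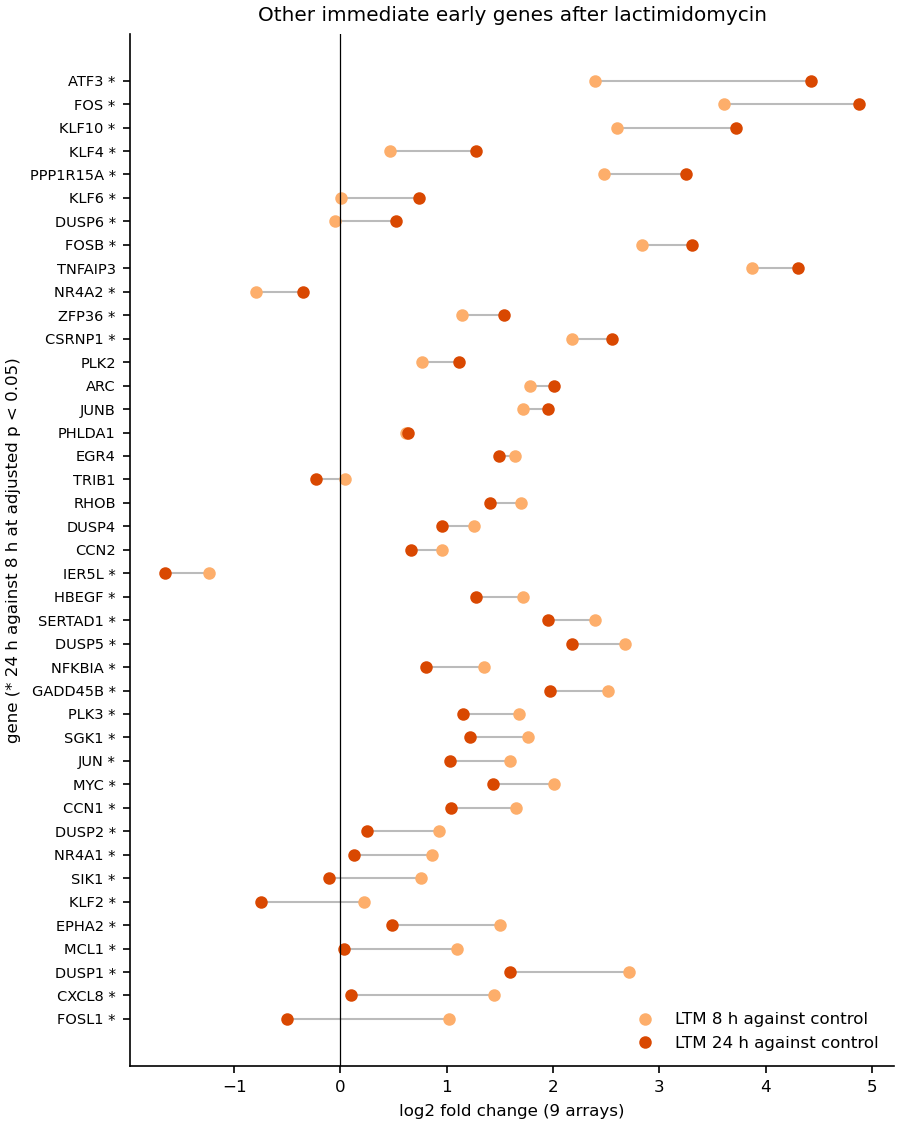
Log2 fold change against control (horizontal axis, 9 arrays) of the 41 other immediate early genes after LTM for 8 h and for 24 h, ordered by the difference between the times, with a star where that difference had an adjusted p under 0.05. ATF3, FOS and KLF10 at the top were higher at 24 h, and DUSP1, CXCL8 and FOSL1 at the bottom were lower.

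Around SRF, 5 of 6 cofactor genes passed the filter. With 9 arrays 3 rose at LTM 8 h, namely FHL2, a LIM-domain cofactor (1.32, adjusted p = 6.67e-05), and the ternary complex factors ELK3 (1.13, adjusted p = 0.00051) and ELK4 (0.58, adjusted p = 0.0124), where 14.4% of all probes rose. As labelled 0 of the 5 passed at 8 h, as did 0% of all probes. FHL2 was then at 1.06 (adjusted p = 0.216), ELK3 at 0.79 (0.229) and ELK4 at 0.38 (0.455). At 24 h with 9 arrays FHL2 (1.16) and ELK3 (0.54) were still above control and 0 fell. Of all probes 26.1% rose and 28.2% fell in that comparison. As labelled FHL2 alone passed at 24 h (adjusted p = 0.024), where 20.0% of all probes rose. Of 16 cytoskeletal genes known as targets of SRF with its MRTF coactivators, 11 passed the filter. Of these 4 rose and 0 fell at 8 h with 9 arrays, where 14.4% of all probes rose and 15.4% fell. At 24 h 4 rose and 2 fell, where 26.1% of all probes rose and 28.2% fell, so the share that rose at 24 h is near that of all probes. As labelled 0 of the 11 passed at 8 h, as did 0% of all probes. At 24 h as labelled 3 rose and 0 fell, where 20.0% of all probes rose and 20.9% fell. Smooth muscle actin ACTA2 was higher at the later time (2.26 at 24 h, and 1.94 above its 8 h level), while the actin-binding gene TAGLN was at 2.75 at 8 h and 1.94 at 24 h. Other leading members at 8 h were ZYX (0.88), CNN2 (0.72) and TPM1 (0.57), and at 24 h TPM1 (0.86) and CNN2 (-0.64). Of the genes named here ACTA2, TAGLN and TPM1 also passed at LTM 24 h as labelled, and ZYX (adjusted p = 0.246) and CNN2 (adjusted p = 0.115) did not. The higher level was not confined to LTM. On the 1 TFT 24 h array left with 9 arrays, ACTA2 was at 1.44 against control and TAGLN at 1.11. ZYX, CNN2 and TPM1 were at -0.08, -0.15 and -0.02 there. ACTA2 on that array was 1.34 above its TFT 8 h level. As labelled ACTA2 was at 0.78 and TAGLN at 0.88 after TFT for 24 h, and neither passed.

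Both EGR co-repressor genes passed the filter. NAB2, which binds EGR proteins and limits their activity, rose by 0.50 at LTM 8 h with 9 arrays (adjusted p = 0.0181), while as labelled the value was 0.38 and did not pass (adjusted p = 0.369). It was lower at 24 h than at 8 h in both fits (-0.58, adjusted p = 0.0413 as labelled; -0.71, adjusted p = 0.00189 with 9 arrays). NAB1 did not pass in these comparisons. Among 6 passing genes of the small MAF family and its partners, NFE2L2, which encodes the stress factor NRF2, rose at 24 h (1.90, adjusted p = 0.00357 as labelled and 2.11e-06 with 9 arrays) and was at 0.85 at 8 h with 9 arrays (adjusted p = 0.00101). In all 1 gene rose and 1 fell at 24 h as labelled, where 20.0% of all probes rose and 20.9% fell. With 9 arrays 1 rose and 3 fell at 24 h, the latter being NFE2, NFE2L3 (-0.99) and NFE2L1 (-0.55). Of all probes 26.1% rose and 28.2% fell in that comparison. NFE2 was not well above background on either LTM 24 h array and was at least 1.87-fold lower than in controls (adjusted p = 8.5e-05 with 9 arrays and 0.0907 as labelled). At 8 h 0 of the 6 passed as labelled, as did 0% of all probes. With 9 arrays 2 rose and 2 fell at 8 h, where 14.4% of all probes rose and 15.4% fell. Besides NFE2L2, these were BACH2 at 0.56, NFE2 at -0.72 and NFE2L3 at -0.48. BACH2 had a mean of 4.94 on the controls, near background, which limits its value.

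By Pearson correlation of log2 intensities over the 12 arrays, the genes whose pattern was most like EGR1 were TNFRSF10B (r = 0.993), MTMR3 (0.992) and TRIM39 (0.991). The gene most like EGR3 was CHIC2 (0.979), most like IER2 was GMEB1 (0.977), most like IER3 was ACOT2 (0.965), most like IER5 was CCNA1 (0.953) and most like MAFF was C3orf52 (0.989). Among the members, EGR3 and IER2 were most alike (0.95) and IER3 and IER5 least (0.55). These coefficients share the same 12 arrays and 5 groups and are descriptions with no test.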

How the data were processed

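Values were deposited by the authors as linear signal intensities per probe, exported from GenomeStudio per the submitters' processing notes and background-subtracted, since 27.3% to 29.3% of them were negative. A detection p-value for each probe stands beside the intensity, per the file headers. From these, limma 3.58.1 (R 4.3.3) neqc was run with the background inferred from the detection p-values, an offset of 16, quantile normalization and log2. Probes detected (p under 0.05) on at least 2 arrays were kept, 24325 of 47230. Gene names came from the platform's probe table, with 26970 of 27004 single symbols matched to RefSeq and 20222 probes unnamed here.

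Group means of all 12 arrays were fitted per probe in limma (7 residual degrees of freedom, 4 with 9 arrays), with two-sided moderated tests, Benjamini-Hochberg adjustment over all kept probes in each comparison and a threshold of 0.05. For a probe undetected on all arrays of a group, a least fold was taken against the higher of the array's lowest detected signal and the probe's own value. The members, lists and tests were chosen with earlier results of these data known. By rule the text names all member probes, up to 4 called genes of largest change per list at each LTM time, and the genes most alike over arrays. Alternatives were no filter, median scaling, the authors' processed intensities of 38223 probes (deposited on a linear scale, normalization not given in the sources used here) as log2 with 16 added, a replicate block, fewer groups and leaving out arrays. The fit was tested on simulated data for LTM 24 h against control. It recovered 33 of 100 planted log2 changes of 1 and 88 of 100 of 2, with 11 false calls for each size. Most planted changes of 1 were thus missed. Same-numbered arrays did not deviate together in all pairs (r from -0.53 to 0.63), so replicate numbers were not used as pairs.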

Additional observations from a re-analysis of the deposited data

Results flagged for a closer look

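The change of IER5 from 8 h to 24 h differed between the drugs with 9 arrays. The LTM change minus the TFT change was -0.94 on the log2 scale (95% confidence interval -1.37 to -0.51, adjusted p = 0.0062, limma interaction test). IER5 was lower at 24 h than at 8 h on both LTM arrays and higher on the 1 remaining TFT 24 h array than on both remaining TFT 8 h arrays. As labelled the value was -0.36 (adjusted p = 0.506). The TFT 24 h level rests on 1 array, whose own spread was not measured. Leaving out the other arrays in turn gave -0.97 to -0.91 with adjusted p of 0.00606 to 0.0218, and median scaling gave -0.73 (adjusted p = 0.0305). For the other 6 probes this difference did not pass with 9 arrays (-1.03 to 0.37), where 27.9% of all probes passed.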

How the results depend on the processing

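As labelled, the number of member probes called depended on the 3 arrays against their labels. With 9 arrays the numbers went from 0 to 6 for LTM 8 h against control, from 3 to 5 for LTM 24 h, from 0 to 2 for LTM 24 h against 8 h, from 0 to 7 for LTM against TFT at 8 h, from 2 to 5 at 24 h and from 0 to 1 for the difference of the drugs in the change with time. Calls over all probes went from 0 to 7247, 9955 to 13202, 8119 to 10532, 0 to 6628, 9774 to 11967 and 5483 to 6787, and for TFT against control from 0 to 407 at 8 h and 0 to 89 at 24 h. Without a filter on dim probes, 1 member probe was called for LTM 24 h against control and 1 for LTM against TFT at 24 h. With only the compared groups fitted there were 6 and 5. The replicate block gave 1 call (EGR1) for LTM 24 h against 8 h, 4 for LTM against TFT at 24 h and 1 (EGR1) for the difference of the drugs. The numbers do not pair the arrays, and the block moved no other number of member calls by over 1.5 times. Deviations of LTM and TFT at 24 h correlated at -0.22 by number, and a crossed pairing gave 5 member calls. Leaving out each array in turn gave 0 to 4 calls for LTM 8 h, 1 to 4 for LTM 24 h, 0 to 1 for LTM 24 h against 8 h, 1 to 5 for LTM against TFT at 24 h and 0 to 0 for both TFT comparisons, LTM against TFT at 8 h and the difference of the drugs. For LTM 24 h calls over all probes were lowest without LTM 24 h replicate 2 (6156). With 9 arrays, leaving out 1 more gave 5 to 7, 5 to 6, 2 to 3 and 1 to 2 member calls for LTM 8 h, LTM 24 h, LTM 24 h against 8 h and the difference of the drugs. Median scaling of 9 arrays left 1 call for LTM 24 h against 8 h (EGR1), and the processed table gave 2 for the difference of the drugs (IER5 and EGR3). Median scaling of 9 arrays moved the median of all probes at LTM 8 h from -0.02 to -0.14. Of the single-probe values under the alternatives, 908 kept direction and call, 48 gained a call, 19 lost one and 40 changed sign with neither value past the threshold. Values past the threshold did not change sign under the alternatives run. EGR3 lies near background, which limits its values.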
